A study of Mus musculus with 6 samples.

Results

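Interferon-stimulated genes were described in EpRas cells, a mouse mammary tumor line derived from EpH4 epithelial cells (BALB/c) by stable expression of oncogenic Ha-Ras. Of 39 listed genes of this class, 35 had a probe set annotated to that gene alone, out of 18820 genes measured in this way, and each was read from its probe set with the highest mean over the arrays. *Igtp*, *Parp9* and *Dtx3l* share their probe sets with another gene in the annotation, *Ifi44* had no probe set of its own, and these 4 were not analysed here. Long-term EMT cells were EpRas cells kept for 14 days in 2 ng/ml of recombinant TGF-β1 (3 arrays), and control cells were the same line left untreated (3 arrays). Both groups carry Ha-Ras and come from this single line, so that the arrays compare samples of the line and not separate tumors.

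Interferons are secreted proteins that cells release when they sense viral nucleic acid. Their receptors activate Jak kinases, which switch on a complex of *Stat2*, *Irf9* and a further Stat protein. This complex binds the interferon-stimulated response element in the promoters of its targets, and the products of these targets block viral entry, translation and replication. Some of the targets, such as *Irf7* and *Irf9*, belong to the pathway itself, so that a response can amplify its own signal. Epithelial cells express many of these genes at a low level without infection.

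The values are log2 values from the RMA algorithm, so that a difference of 1 is a 2-fold change. Probe sets of olfactory receptors, which mammary cells should not use, set a background level of 4.48 (95th percentile of 1006 means). Control replicate 1 stood apart from the other arrays. Over all probe sets it correlated with control replicates 2 and 3 at 0.987 and 0.984, while these correlated with each other at 0.995. The main counts, and the differences of most interferon-stimulated genes, are therefore given with and without control replicate 1. Some comparisons of other genes are given with all arrays only. The samples are called triplicates. The study's general statement on statistics speaks of independent experiments, without saying whether it covers the arrays. The p-values therefore measure the spread between these samples, which may be technical.

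All 35 genes had a lower mean in long-term EMT cells than in control cells, as did 44.6% of all probe sets, and for 29 of them every EMT array lay below every control array. Over the whole array 8.68% of probe sets were apart in this direction. The median log2 fold change of the genes was -1.68, against 0.02 over all genes. Only 1 gene, *Ifit2*, passed the test (limma, adjusted p under 0.05 over all probe sets and a fold above 1.5), where 0.928% of all probe sets passed in this direction, and 0 passed as higher, where 0.993% of all probe sets did. At an unadjusted p under 0.05 with the same fold, 20 of the 35 were lower and 0 were higher, against 2.57% of all probe sets that were lower. The control arrays differed widely among themselves in these genes, and the median SD was 0.17 in long-term EMT cells, against 1.55 in control cells. Over all genes the median SD was 0.11 in long-term EMT cells and 0.13 in control cells.

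**Figure D1:**
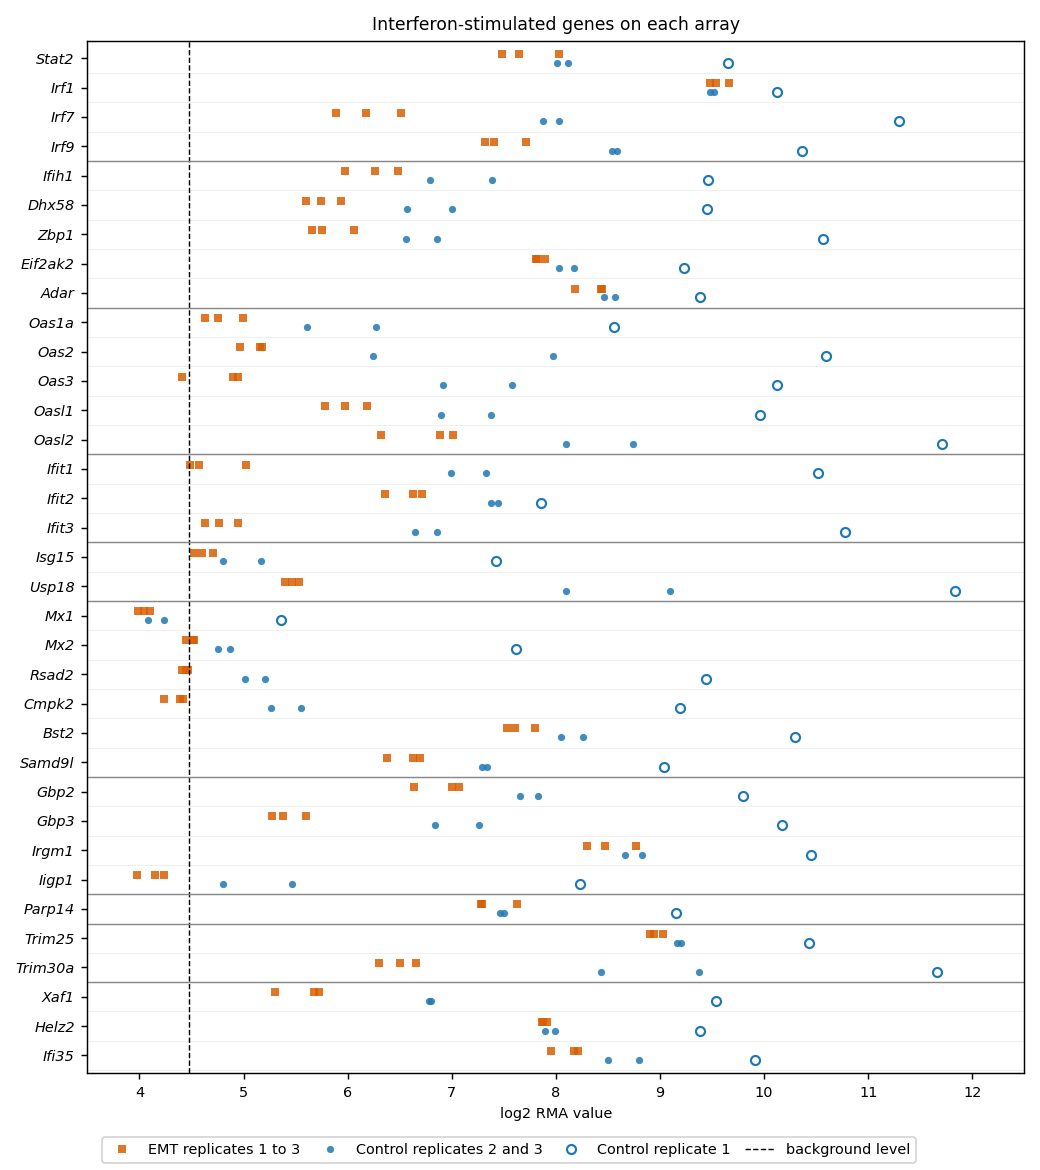
Log2 RMA values (horizontal axis) of the 35 interferon-stimulated genes (rows, grouped by role) on each array, with long-term EMT cells as squares, control replicates 2 and 3 as filled circles and control replicate 1 as open circles. A dashed line at 4.48 marks the background. The open circle is the highest point for all 35 genes, and the 3 squares lie left of all circles for 29 of them.

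The wide spread in control cells came with control replicate 1. It was the highest of the controls for all 35 genes, where it was the highest for 35.3% of all probe sets. It exceeded the mean of control replicates 2 and 3 by a median of 2.62 log2 units over the genes, against 0.01 over all genes. The excess was above 1 log2 unit for 32 genes, against 2.19% of all probe sets, and above 2 log2 units for 22, against 0.487%. Ranked by this excess among all 18820 genes, 13 of the 50 highest and 20 of the 100 highest were interferon-stimulated genes of the list. The excess was largest for *Rsad2* (viperin, which makes a chain-terminating nucleotide that stops viral RNA synthesis) at 4.33, or 20.1-fold, followed by *Ifit3* at 4.03, the nucleic acid sensor *Zbp1* at 3.86 and *Cmpk2*, the mitochondrial nucleotide kinase encoded next to *Rsad2*, at 3.79. It was smallest for *Ifit2* at 0.45, *Irf1* at 0.62 and *Adar* at 0.87.

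Control replicates 2 and 3 were closer to each other. Control replicate 3 was above control replicate 2 for 29 of the 35 genes, against 50.7% of all probe sets, with a median difference of 0.17. The difference was largest for *Oas2* at 1.73, *Usp18* at 1.00 and *Trim30a* at 0.94. The medians over the genes were 6.18, 6.26 and 5.97 in EMT replicates 1, 2 and 3, against 9.80, 7.29 and 7.50 in control replicates 1, 2 and 3, so that every EMT array was below every control array.

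**Figure D2:**
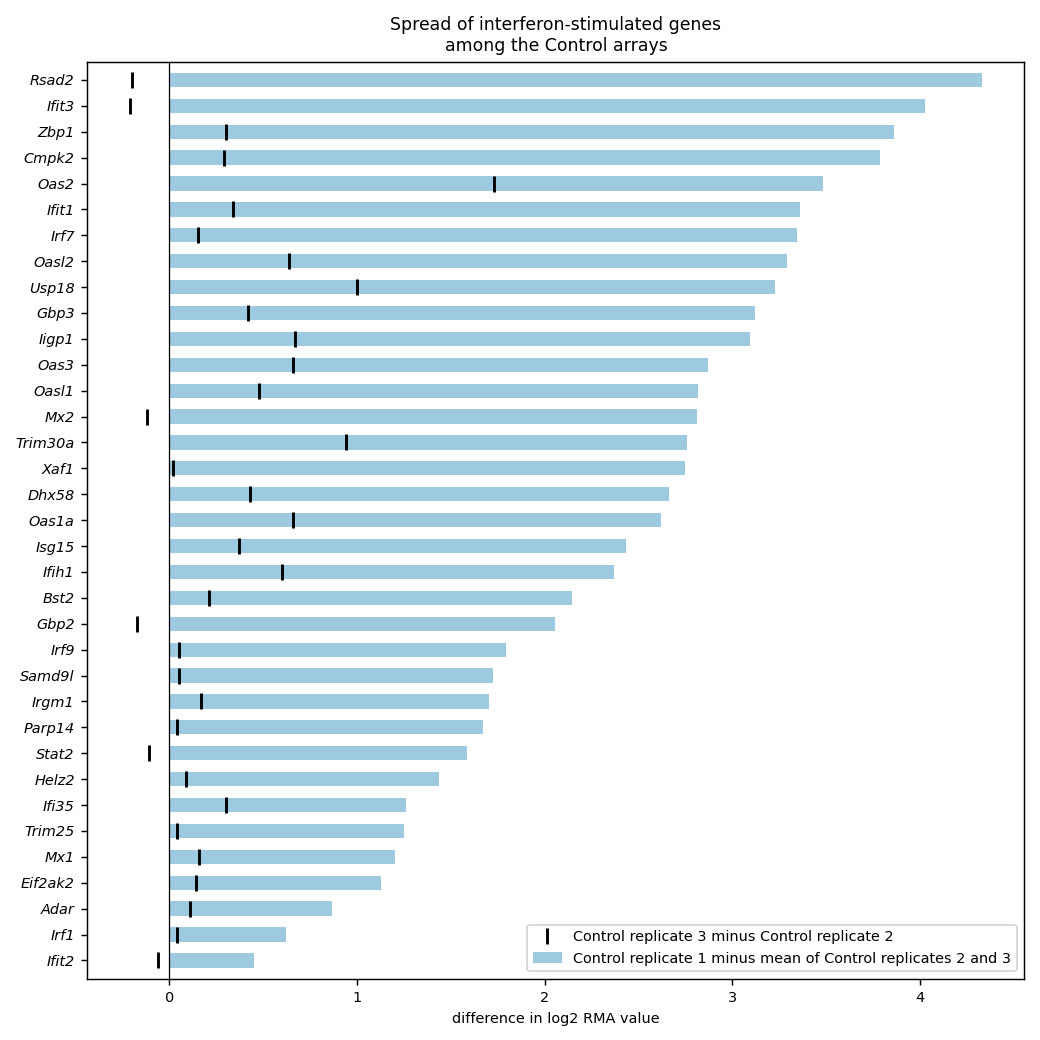
Difference in log2 RMA value (horizontal axis) within the control group, gene by gene (rows, 35 genes). Bars are control replicate 1 minus the mean of control replicates 2 and 3, and black marks are control replicate 3 minus control replicate 2. The bars reach 4.33 for *Rsad2* and are above 1 for 32 genes, while the marks stay between -0.21 and 1.73.

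Without control replicate 1, 16 of the 35 genes fell in long-term EMT cells and 0 rose, against 1.36% of all probe sets that fell and 1.33% that rose. The median log2 fold change of the genes was then -0.85, against 0.015 over all genes, and the median standard error was 0.15 in place of 0.72. EMT arrays lay below both remaining control arrays for 29 genes, against 16% of all probe sets. The 16 genes were *Irf7*, *Irf9*, *Dhx58*, *Oas3*, *Oasl1*, *Oasl2*, *Ifit1*, *Ifit2*, *Ifit3*, *Usp18*, *Rsad2*, *Cmpk2*, *Samd9l*, *Gbp3*, *Trim30a* and *Xaf1*. This fit rests on 2 control arrays. None of the 35 passed when any of the other 5 arrays was left out in place of control replicate 1, so that *Ifit2* passed in 1 of these 6 fits, as did the other 15 genes. Calls over the whole array were also fewer in those 5 fits. There 98 to 320 of all 35556 probe sets were lower, against 482 without control replicate 1.

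**Figure D3:**
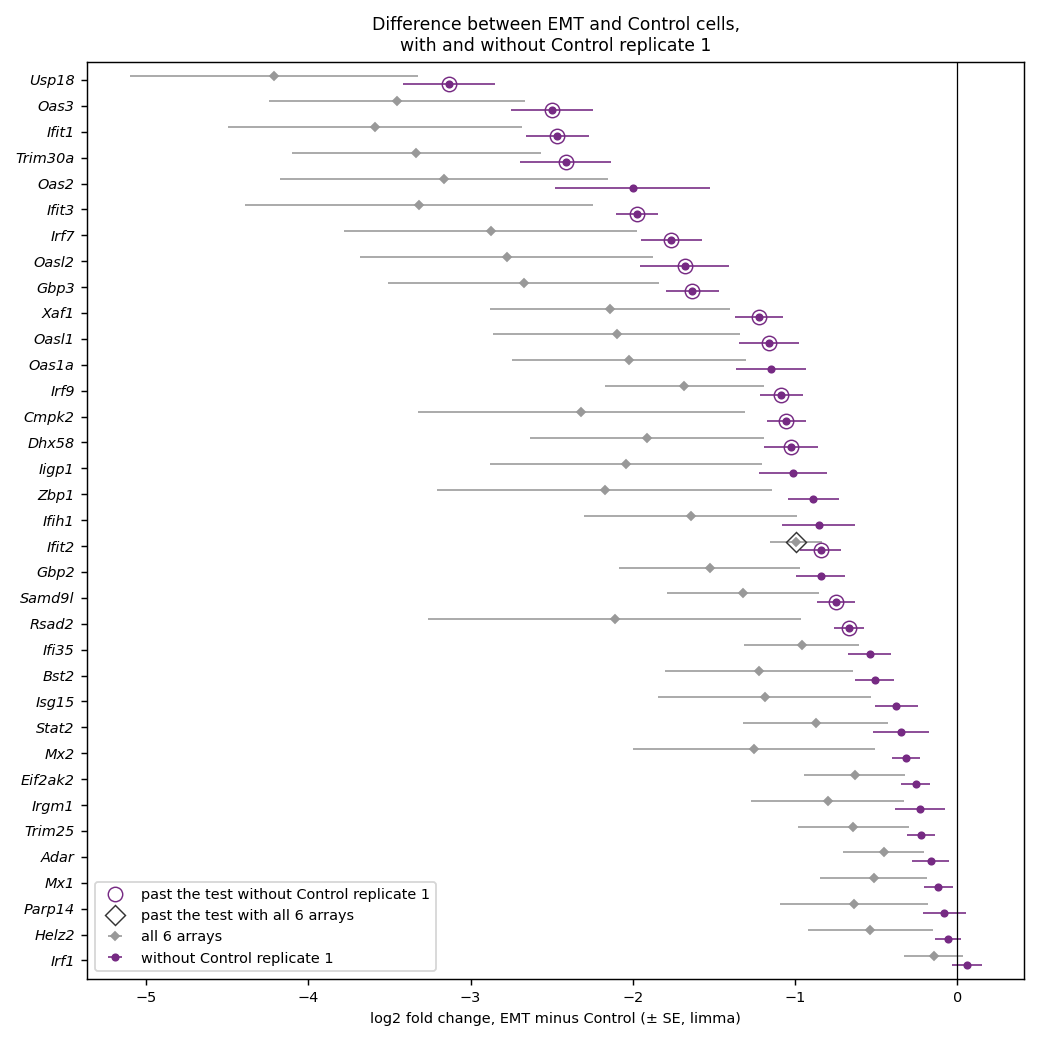
Log2 fold change of long-term EMT over control cells (horizontal axis, with the standard error from limma) for each of the 35 genes (rows), with all 6 arrays (diamonds) and without control replicate 1 (circles). Large open symbols mark genes that passed the test in that fit. With all 6 arrays *Ifit2* alone is marked, and without control replicate 1 the 16 marked genes have narrower error bars and smaller differences.

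Among the transcription factors of the pathway, *Irf7* and *Irf9* were lower in long-term EMT cells. *Irf7*, the factor that drives most interferon-α genes, had log2 values of 6.18, 6.51 and 5.89 in long-term EMT cells, against 11.30, 7.88 and 8.03 in control cells. Every EMT array was thus below every control array, and the highest value was that of control replicate 1. The log2 fold change was -2.88 (limma, n = 3 per group, adjusted p = 0.225, SE 0.90), and without control replicate 1 it was -1.76 (standard error 0.19), with an adjusted p of 0.0111 from limma. *Irf9*, the DNA-binding part of the complex with *Stat2*, had values of 7.41, 7.71 and 7.32 in long-term EMT cells, against 10.36, 8.54 and 8.59 in control cells. Its log2 fold change was -1.68 (limma, adjusted p = 0.191, SE 0.49) and -1.08 without control replicate 1 (adjusted p = 0.0181). *Stat2* itself overlapped between the groups, with 7.48, 8.03 and 7.65 in long-term EMT cells, against 9.65, 8.12 and 8.01 in control cells. *Irf1*, which interferon-γ induces most strongly, stood out for its narrow range, with 9.48, 9.66 and 9.54 in long-term EMT cells, against 10.12, 9.48 and 9.52 in control cells. Its log2 fold change was -0.15 (95% interval -0.59 to 0.29) and 0.06 without control replicate 1 (95% interval -0.16 to 0.28), the only sign change among the 35 genes in these 2 fits.

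The *Ifit* genes encode proteins that bind the cap or the 5′ end of foreign RNA and block its translation. *Ifit1* had log2 values of 5.02, 4.49 and 4.57 in long-term EMT cells, against 10.52, 6.99 and 7.33 in control cells. The EMT arrays were close to the background level, and the groups did not overlap. Its log2 fold change was -3.59 (limma, adjusted p = 0.135, SE 0.91) with all arrays and -2.47, or 5.53-fold lower, without control replicate 1 (adjusted p = 0.00493, SE 0.19). *Ifit3* followed the same pattern, with 4.95, 4.76 and 4.63 in long-term EMT cells, against 10.78, 6.86 and 6.65 in control cells. Its log2 fold change was -3.32 with all arrays (SE 1.07, adjusted p = 0.241 from limma). Without control replicate 1 its log2 fold change was -1.98 (adjusted p = 0.00259 from limma), the lowest adjusted p of the 35 genes in this fit. *Ifit3* has a near-identical neighbour, *Ifit3b*, and whether the probe sets keep these apart was not tested.

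*Ifit2* was the exception in this family. It had log2 values of 6.63, 6.36 and 6.71 in long-term EMT cells, against 7.86, 7.44 and 7.38 in control cells, so that control replicate 1 was only slightly above the other controls. It fell by 0.99 on the log2 scale, or 1.99-fold (limma, adjusted p = 0.0369, SE 0.16), and by 0.84 without control replicate 1 (adjusted p = 0.0306). Its standard error with all arrays was the smallest of the 35 genes, the others having 0.18 to 1.15. Its call was lost when any other array was left out, with adjusted p between 0.0599 and 0.147, and with the replicate number as a block, at an adjusted p of 0.0601.

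The ubiquitin-like protein *Isg15* is attached to other proteins in infected cells, and *Usp18* removes it and also damps the type I interferon receptor. *Usp18* had the largest difference of the list. Its log2 values were 5.47, 5.40 and 5.53 in long-term EMT cells, against 11.83, 8.10 and 9.10 in control cells, so that the EMT arrays were close to each other and all far below the lowest control. The log2 fold change was -4.21, or 18.5-fold lower (limma, 95% interval -6.36 to -2.06, adjusted p = 0.0826, SE 0.89). Without control replicate 1 it fell by 3.13 on the log2 scale, or 8.77-fold (adjusted p = 0.0073, SE 0.28), and it ranked 27 among the falls of all 18820 genes. *Isg15* lay near the background level in all arrays but control replicate 1, with 4.71, 4.52 and 4.60 in long-term EMT cells, against 7.42, 4.80 and 5.17 in control cells. Its log2 fold change was -1.19 (SE 0.66, adjusted p = 0.529 from limma), and without control replicate 1 it was -0.38 (95% interval -0.71 to -0.04, adjusted p = 0.257 from limma).

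The oligoadenylate synthetases make a short RNA messenger that activates RNase L, which degrades viral and cellular RNA. All 5 measured genes of this group, which includes the relatives *Oasl1* and *Oasl2*, lay lower on every EMT array than on every control array. *Oas3* had log2 values of 4.41, 4.90 and 4.95 in long-term EMT cells, against 10.12, 6.92 and 7.58 in control cells. It was 11-fold lower with all arrays (limma, adjusted p = 0.105, log2 fold change -3.45 ± 0.79 SE) and fell 5.64-fold without control replicate 1 (adjusted p = 0.00984). *Oasl2*, with the highest control mean of the group, had values of 7.01, 6.89 and 6.32 in long-term EMT cells, against 11.71, 8.10 and 8.74 in control cells, and a log2 fold change of -2.78 (SE 0.90, adjusted p = 0.243 from limma). It fell 3.2-fold without control replicate 1 (adjusted p = 0.0396). *Oasl1* had 5.78, 5.97 and 6.19 in long-term EMT cells, against 9.96, 6.90 and 7.38 in control cells. It was 4.29-fold lower with all arrays (SE of the log2 fold change 0.76, adjusted p = 0.299 from limma) and fell 2.23-fold without control replicate 1 (adjusted p = 0.0381). *Oas2* had the widest gap between control replicates 2 and 3, with 4.97, 5.18 and 5.16 in long-term EMT cells, against 10.59, 6.24 and 7.97 in control cells. Its log2 fold change was -3.16 with all arrays (SE 1.01, adjusted p = 0.233 from limma) and -2.00 without control replicate 1 (adjusted p = 0.107). *Oas1a* had 4.63, 4.75 and 4.99 in long-term EMT cells, against 8.56, 5.61 and 6.27 in control cells. It was 4.07-fold lower (SE of the log2 fold change 0.72, adjusted p = 0.289 from limma) and 2.22-fold lower without control replicate 1 (adjusted p = 0.0598).

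Among the sensors of foreign nucleic acid, *Ifih1* (MDA5) and *Dhx58* (LGP2) bind double-stranded RNA in the cytosol, and *Zbp1* binds left-handed nucleic acid and can start cell death. *Dhx58* had log2 values of 5.74, 5.60 and 5.94 in long-term EMT cells, against 9.45, 6.57 and 7.00 in control cells. It was 3.77-fold lower with all arrays (SE of the log2 fold change 0.72, adjusted p = 0.317 from limma) and fell 2.03-fold without control replicate 1 (adjusted p = 0.039). *Ifih1* had 6.48, 6.26 and 5.97 in long-term EMT cells, against 9.46, 6.79 and 7.39 in control cells. *Zbp1* had 5.75, 6.06 and 5.66 in long-term EMT cells, against 10.57, 6.56 and 6.86 in control cells. The groups did not overlap for either gene. The log2 fold change of *Ifih1* was -1.64 (SE 0.66, adjusted p = 0.35 from limma) and -0.85 without control replicate 1 (adjusted p = 0.138). That of *Zbp1* was -2.17 (SE 1.03, adjusted p = 0.447 from limma) and -0.89 without control replicate 1 (adjusted p = 0.0518). The double-stranded RNA kinase *Eif2ak2* (PKR) and the RNA editing enzyme *Adar*, which also have roles in uninfected cells, differed least in this group. *Eif2ak2* had 7.81, 7.90 and 7.82 in long-term EMT cells, against 9.23, 8.03 and 8.17 in control cells, a log2 fold change of -0.63 (SE 0.31, adjusted p = 0.465 from limma) that was -0.26 without control replicate 1 (adjusted p = 0.239). *Adar* had a log2 fold change of -0.45 with all arrays and -0.17 (95% interval -0.45 to 0.12) without control replicate 1.

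Of 6 antiviral effectors, *Rsad2*, *Cmpk2*, *Mx1* and *Mx2* were near the background level in long-term EMT cells. *Rsad2* had log2 values of 4.45, 4.41 and 4.47 in long-term EMT cells, against 9.44, 5.21 and 5.01 in control cells, and *Cmpk2* had 4.42, 4.24 and 4.39 in long-term EMT cells, against 9.19, 5.26 and 5.55 in control cells. Their means in long-term EMT cells were at or below the background level, and against that level they were at least 4.22-fold and 4.57-fold lower with all arrays, with adjusted p of 0.522 and 0.396 from limma. These bounds were 1.55-fold and 1.91-fold without control replicate 1, and both genes fell (adjusted p = 0.0265 and 0.0142 from limma). The dynamin-like GTPases *Mx1* and *Mx2*, which trap viral particles, were low in all arrays but control replicate 1. *Mx2* had 4.51, 4.45 and 4.52 in long-term EMT cells, against 7.62, 4.87 and 4.75 in control cells, a log2 fold change of -1.25 (SE 0.75, adjusted p = 0.567 from limma) that was -0.32 without control replicate 1 (adjusted p = 0.141). *Mx1* had 4.10, 3.99 and 4.04 in long-term EMT cells, against 5.36, 4.08 and 4.24 in control cells, so that control replicate 1 alone was above the background level. *Bst2* (tetherin), which holds budding virus at the cell surface, and *Samd9l*, which restricts poxviruses, were well above background in both groups. *Bst2* had 7.80, 7.61 and 7.53 in long-term EMT cells, against 10.30, 8.05 and 8.26 in control cells. It was 2.33-fold lower (SE of the log2 fold change 0.58, adjusted p = 0.445 from limma) and 1.42-fold lower without control replicate 1 (adjusted p = 0.106). *Samd9l* had 6.38, 6.63 and 6.69 in long-term EMT cells, against 9.04, 7.29 and 7.34 in control cells, a log2 fold change of -1.32 (SE 0.47, adjusted p = 0.287 from limma). It fell 1.68-fold without control replicate 1 (adjusted p = 0.0353).

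The guanylate binding proteins and immunity related GTPases coat the vacuoles of intracellular parasites and bacteria, and interferon-γ is a strong inducer of them. *Gbp3* had log2 values of 5.60, 5.38 and 5.27 in long-term EMT cells, against 10.17, 6.84 and 7.26 in control cells. It was 6.38-fold lower with all arrays (SE of the log2 fold change 0.84, adjusted p = 0.225 from limma) and fell 3.1-fold without control replicate 1 (adjusted p = 0.00982). *Gbp2* had 7.00, 7.07 and 6.64 in long-term EMT cells, against 9.80, 7.83 and 7.66 in control cells. The groups did not overlap, and the log2 fold change was -1.53 (SE 0.56, adjusted p = 0.303 from limma) and -0.84 without control replicate 1 (adjusted p = 0.0536). *Iigp1* had 4.24, 4.15 and 3.98 in long-term EMT cells, all below the background level, against 8.23, 4.80 and 5.47 in control cells, a difference of at least 3.23-fold against that level (adjusted p = 0.366 from limma). The bound against the background level was 1.58-fold without control replicate 1 (adjusted p = 0.0752 from limma). *Irgm1* had the highest control mean of this group, and its groups overlapped, with 8.30, 8.77 and 8.47 in long-term EMT cells, against 10.45, 8.66 and 8.83 in control cells.

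Of the Trim ubiquitin ligases, *Trim30a*, a regulator of inflammatory signaling in the mouse, had the highest control mean of the whole list. This place rested on control replicate 1. Over control replicates 2 and 3 its mean was 8.90, below 9.50 for *Irf1* and 9.18 for *Trim25*. The log2 values of *Trim30a* were 6.66, 6.30 and 6.50 in long-term EMT cells, against 11.66, 8.43 and 9.37 in control cells. It was 10.1-fold lower (limma, adjusted p = 0.107, log2 fold change -3.33 ± 0.77 SE) and fell 5.33-fold without control replicate 1 (adjusted p = 0.0152). *Trim25*, which modifies the sensor RIG-I, differed less, with 8.94, 9.03 and 8.90 in long-term EMT cells, against 10.43, 9.16 and 9.20 in control cells, a log2 fold change of -0.64 (SE 0.34, adjusted p = 0.507 from limma) that was -0.22 without control replicate 1 (adjusted p = 0.276). *Xaf1*, which counters an inhibitor of apoptosis, had 5.68, 5.72 and 5.30 in long-term EMT cells, against 9.54, 6.78 and 6.80 in control cells. It was 4.41-fold lower (SE of the log2 fold change 0.74, adjusted p = 0.273 from limma) and fell 2.33-fold without control replicate 1 (adjusted p = 0.0161). *Ifi35* had 8.21, 8.17 and 7.95 in long-term EMT cells, against 9.91, 8.50 and 8.80 in control cells. The groups were apart for *Ifi35* too, with a log2 fold change of -0.96 (SE 0.35, adjusted p = 0.304 from limma) and of -0.54 without control replicate 1 (adjusted p = 0.118).

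For *Parp14*, a mono-ADP-ribosyltransferase, and the helicase gene *Helz2* the groups overlapped and control replicate 1 alone was high. *Parp14* had log2 values of 7.28, 7.63 and 7.29 in long-term EMT cells, against 9.15, 7.46 and 7.50 in control cells. *Helz2* had 7.88, 7.87 and 7.91 in long-term EMT cells, against 9.38, 7.90 and 7.99 in control cells. Without control replicate 1 the 95% intervals of the log2 fold change were -0.41 to 0.25 for *Parp14* and -0.26 to 0.14 for *Helz2*. The excess of control replicate 1 was 1.67 for *Parp14* and 1.80 for *Irf9*, of which only *Irf9* fell in that fit, and the difference between these genes was not tested.

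By their mean over all control arrays, with control replicate 1 included, the genes spread over most of the range of the array. *Trim30a* ranked 2808 of 18820 genes, *Irf1* 3039, *Usp18* 3115 and *Mx1* 12749, the lowest of the 35. Of the 35, 4 lay below the median of all genes (*Isg15*, *Mx1*, *Mx2* and *Iigp1*). Control replicate 1 raised the control mean of every gene of the list. For *Usp18* the mean was 9.68 with it and 8.60 over control replicates 2 and 3. Ranks without control replicate 1 are not given here, and many of the genes would stand lower by them. Probe sets differ in how strongly they bind their target, so that these ranks place each gene on the array and do not compare RNA amounts between genes.

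As a description, the promoters of the genes were searched for the core of the interferon-stimulated response element. This core is GAAANNGAAA, or TTTCNNTTTC when it lies on the opposite strand. RefSeq promoters (build GRCm38.p6, 250 bases before to 50 bases after the start) were matched by symbol for 27 of the 35 genes. The entries of *Dhx58*, *Iigp1*, *Mx1*, *Mx2*, *Oas2*, *Parp14*, *Usp18* and *Zbp1* were not analysed here. The core was found in 14 of the 27 genes (51.9%), against 1079 of 27025 genes (3.99%) with a promoter of this length in the table. The core of the element that interferon-γ acts through, TTCNNNGAA, which reads the same on both strands, was found in 7 of the 27 (25.9%), against 9.55% of all genes, and in 1 gene, *Bst2*, a match to each overlapped. The genes were listed as interferon-stimulated, so that a high share with a match is no independent result. The response element core was in 6 of 14 genes that fell without control replicate 1 (42.9%) and in 8 of the 13 others (61.5%). For the interferon-γ core these counts were 1 (7.14%) and 6 (46.2%). These differences were not tested. A match is a description of the letters and does not show binding. The sequences below are shown to set the match beside the values of *Trim30a*, *Bst2*, *Eif2ak2*, *Gbp2*, *Ifit1* and *Oas3*. Each runs 5′ to 3′ on the strand of the gene, with the matches to the core in capitals and 10 bases on either side.
*Trim30a*, chr7:104465210-104465239, minus strand: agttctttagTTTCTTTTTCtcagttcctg
*Bst2*, chr8:71537577-71537612, minus strand: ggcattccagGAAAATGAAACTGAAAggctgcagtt
*Eif2ak2*, chr17:78882535-78882564, minus strand: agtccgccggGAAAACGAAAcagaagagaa
*Gbp2*, chr3:142620594-142620623, plus strand: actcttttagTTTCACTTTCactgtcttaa
*Ifit1*, chr19:34640775-34640823, plus strand: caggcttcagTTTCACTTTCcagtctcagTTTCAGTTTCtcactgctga
*Oas3*, chr5:120777715-120777744, minus strand: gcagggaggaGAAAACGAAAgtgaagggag

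*Bst2* and *Ifit1* have 2 matches each, overlapping in *Bst2* and separate in *Ifit1*, and the match of *Eif2ak2* lies 18 to 27 bases after the start. The excess of control replicate 1 was 3.36 log2 units for *Ifit1*, 2.87 for *Oas3*, 2.76 for *Trim30a*, 2.15 for *Bst2*, 2.06 for *Gbp2* and 1.13 for *Eif2ak2*.

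Genes upstream of the response were taken from a list of 56 further pathway genes, of which 48 had a probe set of their own. Every EMT array lay below every control array for 13 of the 48, against 8.68% of all probe sets, and above for 4, against 10.5%. Of the 48, 1 fell and 0 rose in long-term EMT cells, against 0.928% and 0.993% of all probe sets. Without control replicate 1, 3 fell and 0 rose, against 1.36% and 1.33% of all probe sets. The gene that fell in both was *Tlr3*, the endosomal receptor for double-stranded RNA, with log2 values of 5.77, 6.01 and 5.99 in long-term EMT cells, against 8.48, 7.52 and 7.21 in control cells. It fell by 1.81 on the log2 scale (limma, adjusted p = 0.0475, SE 0.32) and by 1.44 without control replicate 1 (adjusted p = 0.00804). Its call held in 2 of the 6 fits that left out an array and was lost in the others, and it was lost with the replicate number as a block (adjusted p = 0.0941). The further pathway genes that fell without control replicate 1 were *Ddx58* (RIG-I), a cytosolic RNA sensor that interferon also induces, and *Ifnlr1*, the specific receptor chain for interferon-λ on epithelial cells. *Ddx58* had 9.44, 9.04 and 9.10 in long-term EMT cells, against 11.62, 10.42 and 10.47 in control cells (log2 fold change -1.64, adjusted p = 0.0742 from limma, and adjusted p = 0.0129 without control replicate 1). *Ifnlr1* had 4.68, 4.78 and 5.00 in long-term EMT cells, against 7.46, 5.89 and 5.58 in control cells (log2 fold change -1.49, adjusted p = 0.231 from limma, and adjusted p = 0.0353 without control replicate 1).

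The receptor genes for type I and type II interferon were well above background in both groups. *Ifnar1* had log2 values of 9.57, 9.66 and 9.53 in long-term EMT cells, against 10.00, 9.57 and 9.35 in control cells, and *Ifnar2*, *Ifngr1* and *Ifngr2* were at 9.25 or above on every array. The kinase *Jak1* had a log2 fold change of 0.18, *Jak2* one of 0.67 and *Tyk2* one of -0.01, with adjusted p of 0.425, 0.547 and 0.987 from limma. Control replicate 1 was the highest control for 8 of the 9 receptor and kinase genes, with a median excess of 0.74 log2 units, against 2.62 for the interferon-stimulated genes. *Irf8*, a factor of myeloid cells, had higher values in long-term EMT cells, with 7.70, 7.23 and 6.64, against 6.86, 5.66 and 5.27 in control cells, but control replicate 1 overlapped with them (log2 fold change 1.26, adjusted p = 0.297 from limma). Every EMT array was above control replicates 2 and 3 for *Irf8* (log2 fold change without control replicate 1 of 1.73, adjusted p = 0.0543) and for *Jak2* (1.06, adjusted p = 0.127).

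Interferon genes themselves were mostly at the background level. Of 13 measured ligand genes, 0 passed in either direction and 8 were at or below that level on every array. *Ifnb1*, the interferon-β gene, had log2 values of 3.84, 3.97 and 3.90 in long-term EMT cells, against 4.04, 3.81 and 3.92 in control cells. *Ifnl2*, an interferon-λ gene, was the highest, with 6.60, 7.32 and 7.31 in long-term EMT cells, against 6.71, 7.02 and 7.13 in control cells. For *Ifnl2* control replicate 1 was the lowest control, and for *Ifnb1* the 6 arrays overlapped. The mean over the ligand genes lay between 4.30 and 4.39 in long-term EMT cells and between 4.25 and 4.32 in control cells.

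None of the 10 measured inhibitors of the pathway passed. *Socs1*, which blocks the Jak kinases, had log2 values of 6.30, 6.18 and 6.49 in long-term EMT cells, against 6.83, 6.59 and 6.62 in control cells (log2 fold change -0.36, adjusted p = 0.237 from limma). *Socs3*, a related inhibitor best known for cytokines of the interleukin 6 family, had 8.33, 8.37 and 8.29 in long-term EMT cells, against 8.11, 7.95 and 8.04 in control cells (log2 fold change 0.30, adjusted p = 0.148 from limma). The groups were apart for both, in opposite directions. Of the 10 inhibitors, 5 had every EMT array below every control array, against 8.68% of all probe sets. Only 1, *Socs3*, had every EMT array above, against 10.5% of all probe sets.

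**Figure D4:**
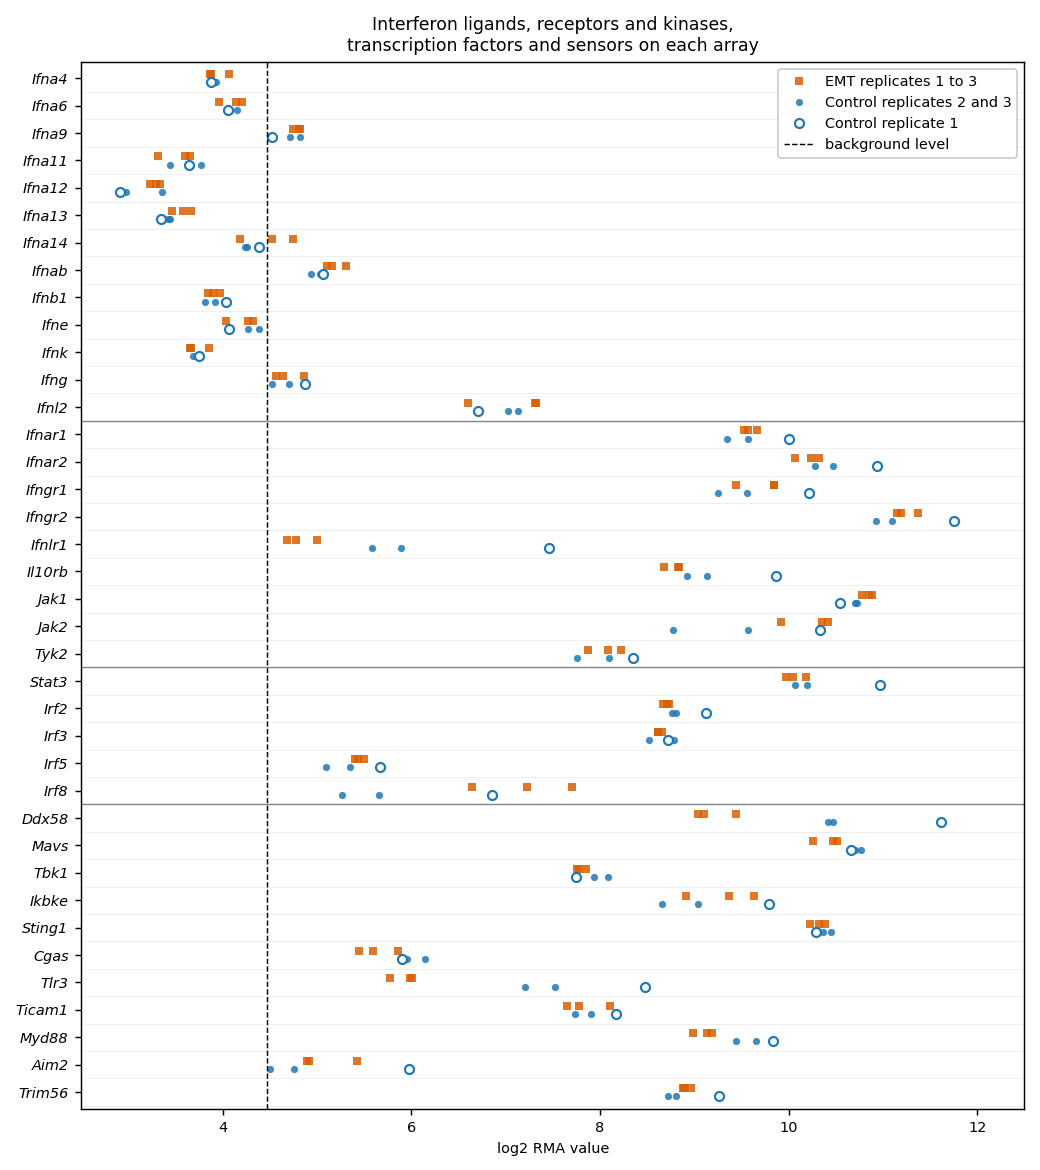
Log2 RMA values (horizontal axis) of interferon ligands, receptors and kinases, transcription factors and sensors (rows, in this order) on each array, with long-term EMT cells as squares, control replicates 2 and 3 as filled circles and control replicate 1 as open circles. A dashed line at 4.48 marks the background. For 8 of the 13 ligands every array is at or left of the line. *Tlr3*, *Ddx58* and *Ifnlr1* are lower in all 3 EMT arrays than in any control array. The same holds, with smaller differences, for *Il10rb*, *Irf2*, *Mavs*, *Cgas* and *Myd88*.

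The epithelial label was checked with 6 markers. *Krt8* and *Krt18*, keratins of simple epithelium, were at 12.46 or above on all arrays. *Krt19* was at 5.25 or below on all arrays but EMT replicate 1, which had 7.07. Of 6 epithelial markers, 3 fell in long-term EMT cells (*Cdh1*, *Epcam* and *Cldn7*), and the mean over the list lay between 7.72 and 8.28 in long-term EMT cells, against 9.62 and 10.3 in control cells. Control replicate 1 was the highest control for all 6, with a median excess of 0.61. Markers of other cell types were mixed in level. The mean over 9 macrophage and monocyte markers lay between 5.54 and 5.82 in long-term EMT cells and between 5.60 and 5.99 in control cells, and 0 of the 9 passed. *Csf1r*, *Adgre1*, *Itgam*, *Lyz2*, *Fcgr1* and *Ptprc* were at 5.04 or below on every array. *Cd14* had 8.80, 8.44 and 8.14 in long-term EMT cells, against 10.55, 9.50 and 8.68 in control cells. Its excess in control replicate 1 was 1.46. *Cd68* had 9.24, 9.04 and 8.48 in long-term EMT cells, against 9.23, 8.50 and 8.22 in control cells. *Mrc1* had 7.93, 6.90 and 6.91 in long-term EMT cells, against 7.09, 6.61 and 6.55 in control cells. The means of *Cd68* and *Mrc1* were thus higher in long-term EMT cells, with overlap. *Lyz2* was lower on every EMT array than on every control array. The mean over 6 fibroblast markers lay between 5.74 and 5.89 in long-term EMT cells and between 5.80 and 6.56 in control cells, and 0 of the 6 passed. *Dcn* had 4.44, 4.33 and 4.11 in long-term EMT cells, against 7.68, 5.98 and 4.50 in control cells, and *Pdgfra* had 7.66, 7.42 and 7.06 in long-term EMT cells, against 8.96, 8.26 and 7.78 in control cells. Both were thus highest in control replicate 1 and lower on every EMT array than on every control array. *Col1a1* went the other way, with 7.50, 7.15 and 7.06 in long-term EMT cells, against 6.84, 6.44 and 6.58 in control cells. The groups overlapped for *Col1a2*, *Col3a1* and *Thy1*. Of 5 lymphocyte markers 4, and of 4 endothelial markers 3, were at or below the background level on every array. The 6 markers of plasmacytoid dendritic cells, which include *Bst2* and *Irf8*, averaged between 6.09 and 6.34 in long-term EMT cells and between 6.10 and 7.46 in control cells, with *Siglech* and *Ccr9* at or below background on all arrays. In that list *Ly6d* had 4.93, 4.72 and 5.14 in long-term EMT cells, against 9.60, 7.09 and 5.64 in control cells. The part of these markers in the results was not tested. In bulk samples fewer cells that express a gene and less RNA per cell cannot be told apart.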

How the data were processed

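RNA from the 6 samples was hybridised to Affymetrix mouse gene 1.1 ST arrays. The deposited log2 values were made by the authors with RMA in Affymetrix Expression Console (version not given in the sources used here) and are given to 2 decimals. RMA had thus already corrected the background and equalised the array distributions, and no raw probe signal was used. Precision is limited by the number of arrays (3 per group). Of 35556 probe sets, 21218 carry 1 gene symbol in the platform annotation, 1881 several and 12457 none; names were taken from those with 1, and each gene was read from its probe set with the highest mean. Long-term EMT was set against control in a linear model (limma 3.58.1, R 4.3.3, moderated variances). P-values were adjusted across every probe set by the method of Benjamini and Hochberg, and a gene passed at an adjusted p under 0.05 with a fold above 1.5. The fit was tested on simulated data. The genes and lists were chosen with earlier results of these data known. Full statistics were given for interferon-stimulated genes that passed, or whose arrays did not overlap with a fold above 1.5. The others of the list are given by values or counts, as are the cell type markers, whether or not they passed. For genes at or below the background level in long-term EMT cells, a fold is a bound against that level, given in place of the fitted one. It bounds the difference in group means and leaves out the spread between arrays. Promoters came from RefSeq (GRCm38.p6), and those printed are from the first 6 genes with full statistics and a match, passing genes first and then by control mean. Alternatives were the t-test of the methods, a trended and robust prior, a replicate block, other scalings, a filter on dim probe sets, other fold limits, the mean of a gene's probe sets, each array left out, and array weights, the last chosen after seeing the data.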

Additional observations from a re-analysis of the deposited data

How the results depend on the processing

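The median log2 fold change of the interferon-stimulated genes was -1.68 with all arrays. It stayed negative under every alternative that could move it, between -2.19 and -0.85 when single arrays were left out. With array weights, a setting chosen after seeing the data, it was -0.97. The t-tests, the other prior, the replicate block and the fold limits leave this median unchanged by design. The count that fell did not hold. It was 1 in the main comparison, 0 with the methods' t-test after Benjamini-Hochberg adjustment, 5 with that t-test at an unadjusted p (*Ifit2*, *Oas3*, *Ifit1*, *Usp18* and *Trim30a*), 0 with a fold above 2, and 5 with array weights (the same 5 genes). It ranged from 0 to 16 when single arrays were left out, with 16 only without control replicate 1. In those fits 98 to 482 probe sets were lower over the whole array, against 330 in the main comparison. For the t-tests, the fold limit and array weights the share of all probe sets is not given here. Those counts therefore cannot be read against the count of the main comparison. Of the pathway genes, 1 fell in the main comparison, 0 with the adjusted t-test, 2 with the unadjusted one, 0 after a further quantile normalization (*Tlr3*, adjusted p = 0.0544 from limma), 2 with array weights and 0 to 3 when single arrays were left out. With array weights 1 pathway gene rose, *Irf8* (log2 fold change 1.46, adjusted p = 0.029 from limma). *Irf1* changed sign, to 0.0664 with array weights and 0.06 without control replicate 1, against -0.15 in the main comparison, and the leave-one-out values ran from -0.26 to 0.06. The cause of these shifts was not tested. The filter on dim probe sets left *Mx1* out. Whether replicate numbers pair the arrays is not stated, and the correlations do not settle it. Over probe sets above background, deviations from the group means correlated at 0.25, 0.04 and 0.34 within numbers 1, 2 and 3. EMT replicate 2 correlated more with control replicate 1, at 0.06. Over the interferon-stimulated genes the values within numbers were 0.19, 0.10 and 0.27. There each EMT replicate correlated most with the control of its own number. With the replicate number as a block, 0 interferon-stimulated genes fell (*Ifit2*, adjusted p = 0.0601 from limma), *Tlr3* was lost (adjusted p = 0.0941) and *Ddx58* was the 1 pathway gene that fell (adjusted p = 0.0459), and 256 probe sets were higher and 278 lower, against 353 and 330 without it. With 3 arrays a group and a control group this uneven, single-gene calls are imprecise.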

Other observations

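Genes outside the list that were highest in control replicate 1 were chosen here after their values were seen. Of the 20 genes with the largest excess over control replicates 2 and 3, 4 were interferon-stimulated genes of the list. The largest excess was that of *Ltf* (lactoferrin, a secreted iron-binding protein) at 6.09 log2 units, followed by *Gabrp* at 5.16, and *Nos2*, the inducible nitric oxide synthase, had 4.81. The group also held the interferon-inducible genes *Ifi205* at 4.35, *Ifi27l2a* at 4.30 and *Ifit3b* at 3.94, and the cytokine gene *Il1a* at 4.09. The part of these genes in the comparison of long-term EMT and control cells was not tested.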
